A study of Mus musculus with 6 samples.

Results

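Cytochrome P450 enzymes of families 1 to 3 were examined in liver RNA of L1-Tg and WT mice, together with the reductase Por that feeds them electrons and the receptors Nr1i2, Nr1i3 and Ahr. Members were array genes whose RefSeq name maps to a symbol that starts with Cyp1a, Cyp1b, Cyp2 plus a letter, or Cyp3a, and these 4 genes were added. The rule used symbols and no measured value, but it was chosen with earlier results of these data known. It gave 61 genes, of which 57 encode P450 enzymes or P450 pseudogenes, among 37074 genes on the array, read by 79 of 55681 probes.

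The microarray compared male L1-Tg mice with male WT littermates, all fed a control-fat diet (CFD, the standard chow CE-2). The transgenic animals were hemizygous for human NPC1L1, a cholesterol transporter, which the APOE promoter drives in hepatocytes, and descended from 1 line, B6;D2-Tg(APOE-NPC1L1)20Lqyu/J. Animals of both groups came from at least 8 generations of backcrossing to C57BL/6J and were 6 to 12 weeks of age according to the methods. Each group had 3 arrays, and each array held Cy3-labeled cRNA from a pool of 2 or 3 mice, so that every spread given here is a spread between pools. Because the tissue was whole liver, fewer cells of a type and less RNA per cell cannot be told apart.

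P450 enzymes of these families sit in the endoplasmic reticulum and oxidize drugs, steroids, fatty acids and other lipophilic compounds with electrons that Por passes on from NADPH. In the liver their genes are known targets of the xenobiotic sensors CAR (encoded by Nr1i3), PXR (Nr1i2) and the aryl hydrocarbon receptor (Ahr), and several Cyp2 and Cyp3a genes differ between male and female mice. Many members lie in tandem gene clusters and are close copies of each other, so a probe named for a gene may also bind its neighbor. Probe sequences were not used here, and values of such copies are uncertain in this respect.

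All 6 arrays shared 1 slide and 1 scan. Row 1 of the slide held WT and row 2 L1-Tg, so row and genotype cannot be told apart. Between 53.1% and 59.2% of spots were well above background on an array, and 0 spots were saturated. The transgene is human, so the mouse Npc1l1 probe does not check the genotype. Its signal was above background in 1 pool of the transgenic group and 2 pools of the WT group. The hepatocyte markers were measured in every pool, with 10 of 10 tested and a median log2 difference of -0.10. Values below are log2 of the processed signal minus the 75th percentile of the same array, so that 0 is the level of the probe at that percentile, and they were never set against another probe. A difference is the L1-Tg mean minus the WT mean.

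Of the 61 members, 51 were well above background on all 6 arrays, 7 on 1 to 5 arrays, and Cyp2ab1, Cyp2b23 and Cyp2c65 on 0 arrays. The test covered the 55 members, 51 of them P450, whose probe was above background in each pool of at least 1 genotype. Beside the dim ones, Cyp2b19, Cyp2j11 and Cyp2w1 were not tested. Other P450 genes of these families, such as Cyp2a5, Cyp2c40, Cyp2c69, Cyp2j7, Cyp2j12 and Cyp3a41a, were not analysed here.

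The 3 tested members of the Cyp2b subfamily and their tested neighbors of the Cyp2a and Cyp2g subfamilies had higher signals in every L1-Tg pool than in any WT pool. Most members of the Cyp2c, Cyp2d, Cyp2e, Cyp2f and Cyp2j subfamilies, 25 of 29 tested, differed by under 0.25 on the log2 scale. The share of all tested genes under that size was not counted. The reductase Por was lower in every L1-Tg pool. With 3 pools a group, 0 of the 55 members had a limma adjusted p under 0.05 over the 22338 genes tested (background 0.13% of genes), and the smallest was 0.267. At an unadjusted limma p under 0.05 there were 9 members, 8 higher and 1 lower, against a background of 8.85% of genes (4.54% higher and 4.31% lower). The same 9 members were those whose groups did not overlap, where the background was 15.9% (7.27% higher and 8.63% lower). The difference index of the methods, the difference of group means over the sum of group SDs, passed a modulus of 0.7 for 13 of 61 members, 10 higher and 3 lower, where 30.2% of all genes passed (8.67% higher and 21.6% lower). Beside the 9 members above, the index also passed Cyp2b19 and Cyp2j6 as higher and Nr1i2 and Cyp2t4 as lower. As shares, 21.3% of the members passed the index and 16.4% of the tested members had groups without overlap. Among tested genes alone, 26.5% passed the index (11.8% higher and 14.7% lower). Of the 55 tested members, 9 passed it as higher and 3 as lower.

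Over the 51 P450 members tested, the median log2 difference was -0.04, with 21 higher and 30 lower, and over all tested genes it was -0.03, with 56.9% of genes lower. The members with the larger differences were few. In 35 of the 51 the difference was under 0.25 in size, and in 5 it was over 1. The shares of all tested genes at these sizes were not counted, so these counts are not read as a trait of the members.

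**Figure D1:**
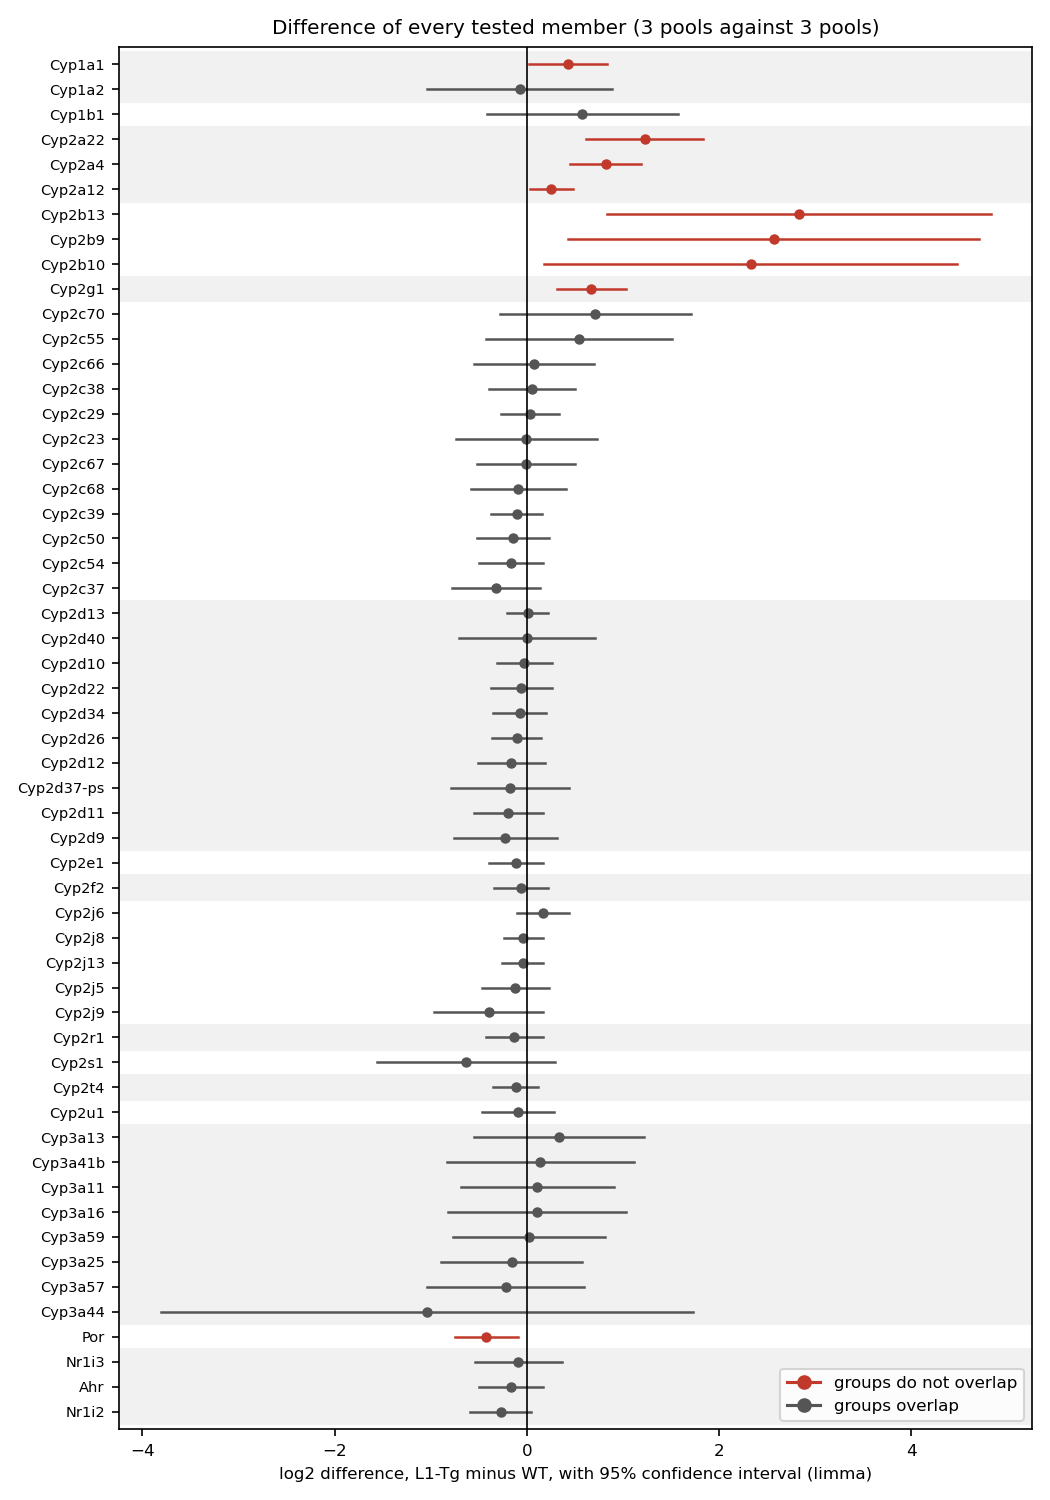
Log2 difference between L1-Tg and WT livers (horizontal axis) for each of the 55 tested members, grouped by subfamily in shaded bands, with the limma 95% confidence interval as a line. Red marks members whose 3 L1-Tg pools and 3 WT pools did not overlap: Cyp1a1, the 3 Cyp2a, the 3 Cyp2b and Cyp2g1 lay above 0 and Por below.

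The upstream sequences of 4 of the higher members are shown because these genes carried the largest differences (Cyp2b10, Cyp2b9 and Cyp2b13) and the smallest p (Cyp2a4). They are the 250 bases before the annotated start, from RefSeq on GRCm38.p6, all on the plus strand of chromosome 7, at chr7:25897408-25897657 for Cyp2b10, chr7:26173159-26173408 for Cyp2b9, chr7:26061245-26061494 for Cyp2b13 and chr7:26306942-26307191 for Cyp2a4. Capitals mark matches, on either strand, to a TATA box (letters TATAAA), to a nuclear receptor half-site (letters AGGTCA) or to the core of the aryl hydrocarbon receptor element (letters GCGTG).
Cyp2b10: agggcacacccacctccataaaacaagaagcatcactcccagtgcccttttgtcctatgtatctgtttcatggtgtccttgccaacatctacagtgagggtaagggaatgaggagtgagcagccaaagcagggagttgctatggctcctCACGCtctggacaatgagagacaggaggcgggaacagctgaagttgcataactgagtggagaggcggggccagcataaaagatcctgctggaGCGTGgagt
Cyp2b9: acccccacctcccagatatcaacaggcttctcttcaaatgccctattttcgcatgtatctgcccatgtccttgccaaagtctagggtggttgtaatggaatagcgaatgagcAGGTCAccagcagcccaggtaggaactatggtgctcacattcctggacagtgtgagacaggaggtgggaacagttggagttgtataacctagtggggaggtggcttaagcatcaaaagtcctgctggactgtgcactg
Cyp2b13: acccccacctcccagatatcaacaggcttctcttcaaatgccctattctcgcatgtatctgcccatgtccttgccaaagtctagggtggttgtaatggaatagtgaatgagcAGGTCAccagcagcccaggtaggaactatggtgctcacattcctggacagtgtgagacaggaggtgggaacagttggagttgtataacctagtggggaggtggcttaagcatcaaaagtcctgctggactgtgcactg
Cyp2a4: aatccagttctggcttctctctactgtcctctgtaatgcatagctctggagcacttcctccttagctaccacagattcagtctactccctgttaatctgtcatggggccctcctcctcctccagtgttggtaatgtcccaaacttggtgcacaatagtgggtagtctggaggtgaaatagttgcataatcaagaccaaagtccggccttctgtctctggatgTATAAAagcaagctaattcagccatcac
The Cyp2b9 and Cyp2b13 sequences were identical at 248 of 250 bases (99.2%) and differed by T48C and C104T, where positions count from 1 at the 5′ end shown and Cyp2b9 is given before Cyp2b13. Both held AGGTCA from 138 to 133 bases before the start. Cyp2b10 aligned with Cyp2b9 at 186 of 262 positions (71.0%). Within these 250 bases it held GCGTG at 2 places but no AGGTCA, and Cyp2a4 held a TATA box 28 to 23 bases before its start. Sequence further upstream was not searched, so sites there are not known from these data.

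Over the 51 members with a promoter in the RefSeq table, 45.1% held TATAAA, against 13.0% of all 27025 promoters of the same length. AGGTCA was found in 29.4% of members and 13.8% of all promoters, and GCGTG in 17.6% and 28.2%. The letters CAAAGTCCA of an HNF4 site were in 13.7% of members and 0.381% of all promoters, and TTCNNNGAA of a STAT site in 1.96% and 7.18%. HNF4 letters were present in Cyp2c65, Cyp2c67, Cyp2c68, Cyp2c70, Cyp3a11, Cyp3a16 and Cyp3a41b and in 0 of the 7 non-overlapping higher P450 genes that had a promoter there. These shares describe letters in a window, and copies within a gene cluster are not independent of each other.

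Cyp2b10, the classical target gene of CAR, had log2 signals of 3.94, 2.17 and 2.94 in the L1-Tg pools and 1.47, -1.29 and 1.87 in the WT pools. The groups did not overlap, but L1-Tg replicate 2 was only slightly above WT replicate 3, and WT replicate 2 lay far below the other WT pools. The difference was 2.33, or 5.03-fold, with a standard error of 0.89 (95% interval 0.18 to 4.48, limma adjusted p = 0.546). It was 1.35 without WT replicate 2.

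Cyp2b9, known for higher expression in female than in male mouse liver, had log2 signals of 0.52, -1.90 and -0.63 in the L1-Tg pools and -2.01, -4.91 and -2.79 in the WT pools. Again L1-Tg replicate 2 was the lowest of its group and nearly met the highest WT pool, and WT replicate 2 was the lowest of all and not above background. The difference was 2.57, or 5.93-fold, with a standard error of 0.89 (95% interval 0.43 to 4.71, limma adjusted p = 0.520), and it was 1.73 without WT replicate 2.

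Cyp2b13, its near copy, had log2 signals of 0.06, -3.05 and -0.87 in the L1-Tg pools and -3.27, -4.92 and -4.15 in the WT pools. Every L1-Tg pool was higher than every WT pool, but L1-Tg replicate 2 was only slightly above WT replicate 1. Of the WT pools, 2 of 3 were above background. The difference was 2.83, or 7.10-fold, with a standard error of 0.83 (95% interval 0.83 to 4.82, limma adjusted p = 0.473). With 1 pool left out it ranged from 2.16, without L1-Tg replicate 1, to 3.71, without L1-Tg replicate 2. The folds of Cyp2b9 and Cyp2b13 each rest on a WT mean that includes 1 pool not above background. After a normexp background correction, which adds an offset that weighs most on dim signals, the differences of Cyp2b9 and Cyp2b13 were 1.39 and 1.34.

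The other Cyp2b members were at or near background. Cyp2b19 was above background in 2 pools of L1-Tg and in 0 pools of WT, its groups overlapped, and it was not tested. Cyp2b23 was not above background in any pool.

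Cyp2a4, a steroid hydroxylase of mouse liver that is also female-biased, had log2 signals of 9.07, 8.91 and 9.04 in the L1-Tg pools and 8.12, 7.96 and 8.48 in the WT pools. The lowest L1-Tg pool was clearly above the highest WT pool, and the L1-Tg pools lay close together. The difference was 0.82, or 1.76-fold, with a standard error of 0.15 (95% interval 0.45 to 1.19, limma adjusted p = 0.267). A second Cyp2a4 probe, also measured on all arrays, differed by 0.99. Cyp2a5, a close copy of Cyp2a4 in the same cluster, was not analysed here, and whether its transcripts bind these probes was not tested.

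Cyp2a22 had log2 signals of -2.21, -2.86 and -1.85 in the L1-Tg pools and -3.45, -3.50 and -3.64 in the WT pools. The WT pools were tightly grouped below all L1-Tg pools. The difference was 1.22, or 2.34-fold, with a standard error of 0.25 (95% interval 0.62 to 1.83, limma adjusted p = 0.309), and it was 0.55 after normexp correction.

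Cyp2a12, a liver enzyme that hydroxylates testosterone, had log2 signals of 7.57, 7.56 and 7.65 in the L1-Tg pools and 7.43, 7.35 and 7.23 in the WT pools. The groups did not overlap although the step was small. The difference was 0.26, or 1.19-fold, with a standard error of 0.09 (95% interval 0.03 to 0.48, limma adjusted p = 0.537).

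Cyp2g1, best known from the olfactory mucosa, had log2 signals of 0.38, 0.60 and 0.79 in the L1-Tg pools and 0.02, 0.04 and -0.30 in the WT pools. All L1-Tg pools were above all WT pools. The difference was 0.67, or 1.59-fold, with a standard error of 0.15 (95% interval 0.31 to 1.03, limma adjusted p = 0.343).

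**Figure D2:**
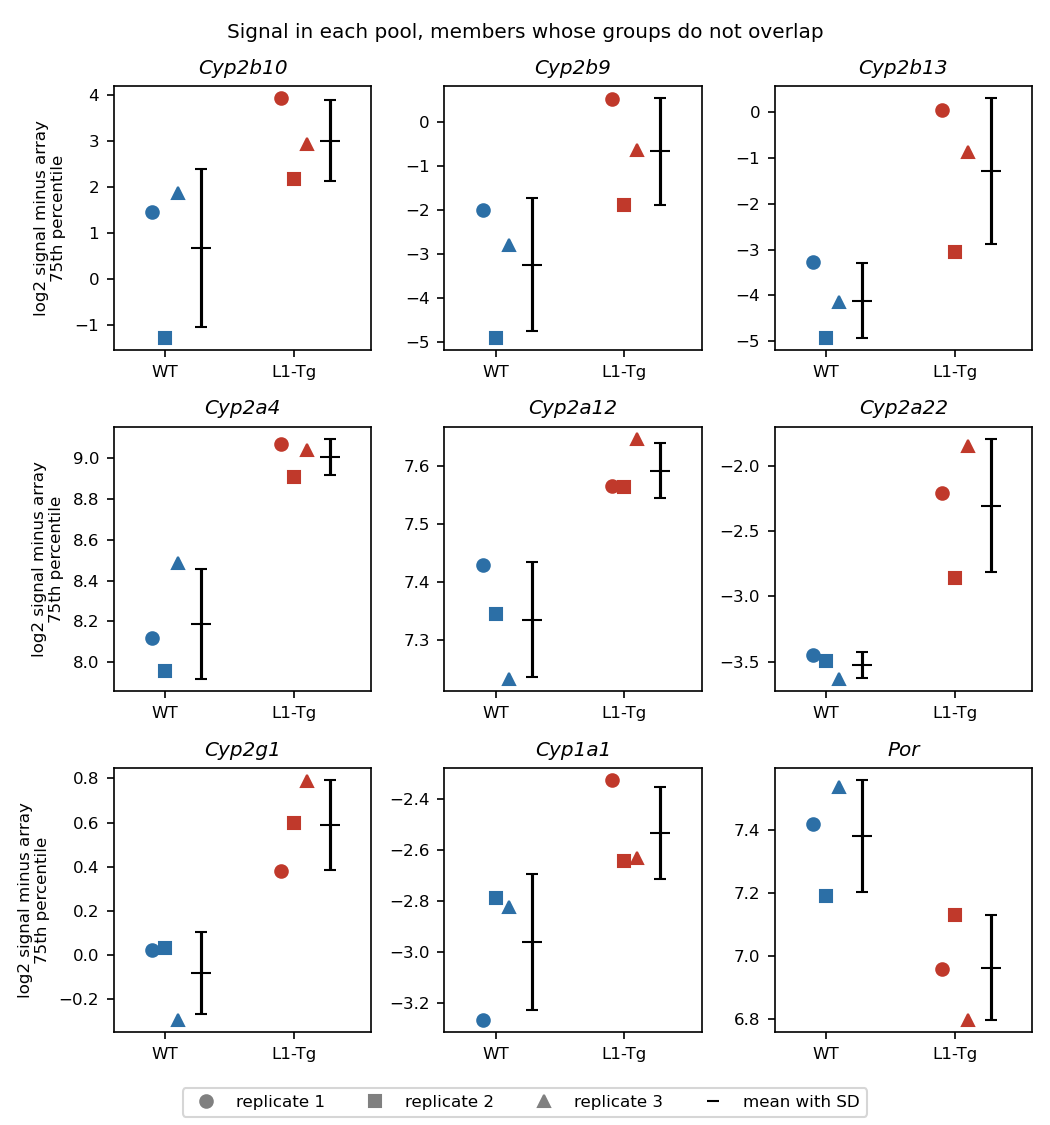
Log2 signal minus the array's 75th percentile (vertical axis, scaled for each gene) in each WT pool (blue) and L1-Tg pool (red) for the 9 members whose groups did not overlap, with the mean and SD in black. In the 3 Cyp2b genes L1-Tg replicate 2 and WT replicate 2 were the lowest of their groups. L1-Tg replicate 2 was also the lowest L1-Tg pool in Cyp2a4, Cyp2a12, Cyp2a22 and Cyp1a1. WT replicate 2 was also the lowest WT pool in Cyp2a4 and Por. In Cyp2a4, Cyp2a12 and Cyp2a22 at least 1 group was tight.

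These 7 genes are neighbors. In the RefSeq gene order on chromosome 7 the P450 genes run Cyp2s1, Cyp2b10, Cyp2b13, Cyp2b9, Cyp2a4, Cyp2b23, Cyp2b19, Cyp2g1, Cyp2a5, Cyp2a22, Cyp2a12, Cyp2f2 and Cyp2t4. From Cyp2b10 to Cyp2a12, 7 of 7 tested members were higher in L1-Tg mice with groups that did not overlap, against 1 of the 44 other tested P450 members. This count depends on the filter. Cyp2b9 and Cyp2b13 passed it only through the L1-Tg pools, where they are high. Cyp2b23 and Cyp2b19 lie in the same stretch, were not tested, and had groups that overlapped. Over all tested genes, 7.27% were higher without overlap. The stretch was singled out after the values were seen, so no test was made of it. At its ends, the differences were -0.64 for Cyp2s1, -0.06 for Cyp2f2 and -0.12 for Cyp2t4, and in these 3 genes the groups overlapped. The 15 protein-coding genes from Cyp2b10 to Cyp2a12 include 5 that are no P450. Of these, Nlrp9c, Nlrp9a and Vmn1r185 were above background on 0 arrays and Nlrp4a on 1 array.

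**Figure D3:**
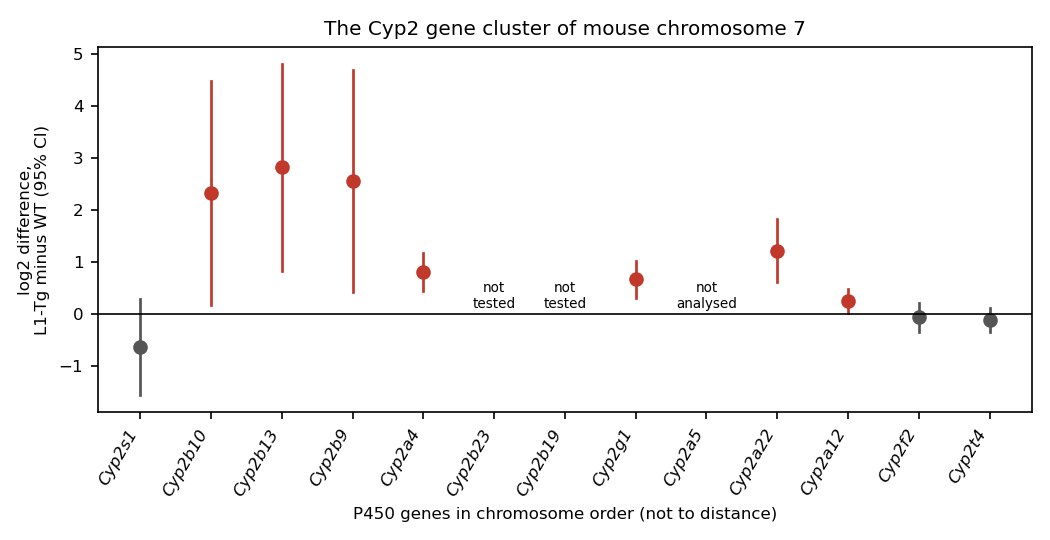
Log2 difference between L1-Tg and WT livers with its 95% confidence interval (vertical axis) for the protein-coding P450 genes of the chromosome 7 cluster in their order along the chromosome (horizontal axis, distances not to scale). The 7 red genes from Cyp2b10 to Cyp2a12 had groups without overlap, and Cyp2s1, Cyp2f2 and Cyp2t4 (grey) at the ends lay at or below 0.

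Family 1 holds targets of the aryl hydrocarbon receptor that oxidize polycyclic aromatic compounds. Cyp1a1 had log2 signals of -2.33, -2.64 and -2.63 in the L1-Tg pools and -3.27, -2.79 and -2.82 in the WT pools. The gap between the groups was narrow, and WT replicate 1 was the lowest pool. The difference was 0.43, or 1.34-fold, with a standard error of 0.17 (95% interval 0.02 to 0.83, limma adjusted p = 0.551), and it was 0.27 without WT replicate 1 and 0.14 after normexp correction.

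Cyp1a2, the constitutive family 1 enzyme of hepatocytes, had log2 signals of 4.85, 4.31 and 3.45 in the L1-Tg pools and 3.75, 4.67 and 4.41 in the WT pools, and the groups overlapped fully. Its difference was -0.07 (95% interval -1.04 to 0.89). Cyp1b1, whose probe was above background in all L1-Tg pools but only 1 WT pool, differed by 0.58 (95% interval -0.42 to 1.57).

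Por had log2 signals of 6.96, 7.13 and 6.80 in the L1-Tg pools and 7.42, 7.19 and 7.54 in the WT pools. The groups did not overlap, but L1-Tg replicate 2 and WT replicate 2 were close to each other. The L1-Tg mean was 74.7% of the WT mean, a log2 difference of -0.42 with a standard error of 0.14 (95% interval -0.75 to -0.09, limma adjusted p = 0.50). The difference was -0.31 with scaling to the array median, where its unadjusted p was above 0.05.

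The receptors were measured in every pool. Nr1i2 (PXR) had log2 signals of 2.79, 3.22 and 3.02 in the L1-Tg pools and 3.31, 3.19 and 3.34 in the WT pools, where L1-Tg replicate 2 lay among the WT pools. Its difference was -0.27 (95% interval -0.59 to 0.05, limma adjusted p = 0.590), and its index of -0.94 passed the threshold of the methods. Nr1i3 (CAR) had log2 signals of 4.56, 4.21 and 4.03 in the L1-Tg pools and 4.10, 4.35 and 4.61 in the WT pools, and the groups overlapped.

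The difference of Nr1i3 was -0.09 (95% interval -0.54 to 0.36), and that of Ahr was -0.16 (95% interval -0.50 to 0.17). A dimmer Ahr probe, with 2 measured pools in each group, differed by 0.41.

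The Cyp3a subfamily, whose main mouse liver enzyme Cyp3a11 is a known PXR target, varied widely between pools of the same genotype. Cyp3a11 had log2 signals of 9.02, 8.99 and 8.43 in the L1-Tg pools and 8.11, 8.66 and 9.34 in the WT pools. Both the lowest and the highest pool were WT. Its difference was 0.11 (95% interval -0.69 to 0.90, limma adjusted p = 0.925). Cyp3a13 had the largest positive difference of the subfamily at 0.33 (95% interval -0.55 to 1.21).

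Over the 8 Cyp3a members the median difference was 0.06, with 5 higher and 3 lower. WT replicate 1 was the lowest WT pool in 7 of 8 members, WT replicate 3 the highest WT pool in 6 of 8, and L1-Tg replicate 3 the lowest L1-Tg pool in 7 of 8. Without WT replicate 1 the median was -0.25 and without WT replicate 3 it was 0.37, so the direction depended on which WT pool was kept. The exceptions were Cyp3a44 for both WT orders, Cyp3a57 for the highest WT pool and Cyp3a13 for the lowest L1-Tg pool. Cyp3a44 had log2 signals of -4.28, -1.24 and -4.73 in the L1-Tg pools and -1.29, -1.61 and -4.24 in the WT pools, with a difference of -1.04 (95% interval -3.81 to 1.73).

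The spread between pools of a genotype, given as the SD pooled over both groups on the log2 scale, had a median of 0.17 over all tested genes. It was 0.53 for Cyp3a, 1.36 for Cyp2b, 0.28 for Cyp2c and 0.18 for Cyp2d. All 8 Cyp3a and all 3 tested Cyp2b members exceeded the 90th percentile of all genes, whereas 3 of 12 Cyp2c and 0 of 10 Cyp2d members did. In the 3 Cyp2b members L1-Tg replicate 1 was the highest and L1-Tg replicate 2 the lowest L1-Tg pool, and WT replicate 2 was the lowest WT pool. L1-Tg replicate 2 was also the lowest L1-Tg pool in Cyp2a4, Cyp2a12 and Cyp2a22. L1-Tg replicate 3, the lowest L1-Tg pool of most Cyp3a members, was also the lowest in 8 of 10 Cyp2d members. Members of a subfamily share the RNA of each pool and may share probe binding, so these orders are not independent observations.

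**Figure D4:**
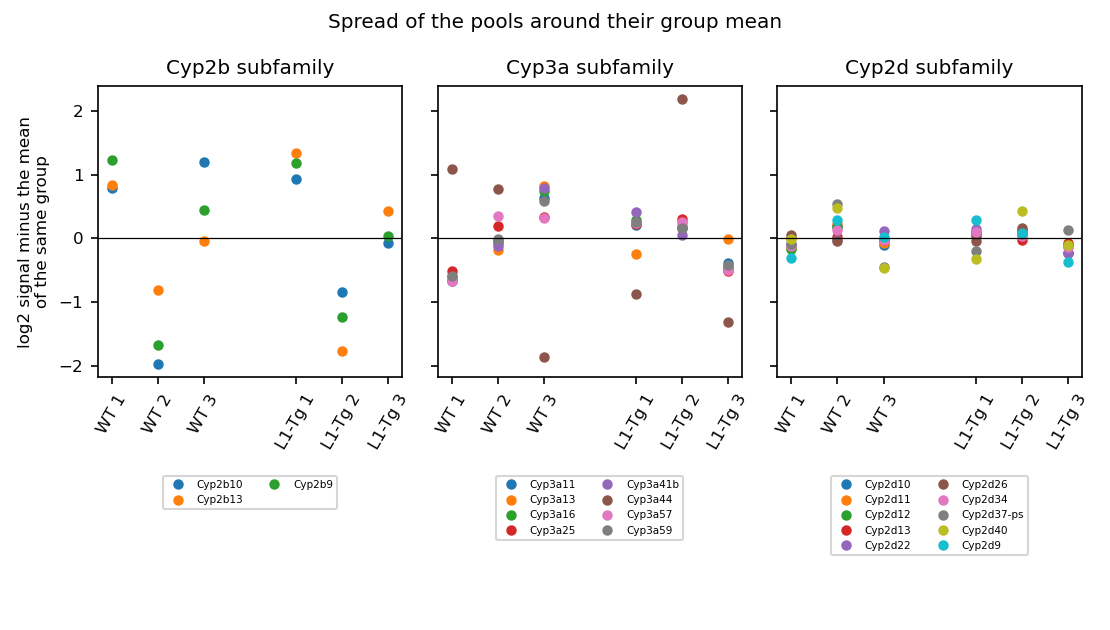
Deviation of each pool from the mean of its own group (vertical axis, log2 signal) for the tested members of the Cyp2b, Cyp3a and Cyp2d subfamilies, with 1 color per gene and the 6 pools along the horizontal axis. The 3 Cyp2b genes shared their lowest pool in each group, and so did most Cyp3a genes, apart from Cyp3a44 in WT and Cyp3a13 in L1-Tg. The Cyp2d genes stayed closer to their group means, but in 8 of 10 L1-Tg replicate 3 was also the lowest L1-Tg pool.

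The bulk of the family 2 enzymes differed little. In the 29 tested members of Cyp2c, Cyp2d, Cyp2e, Cyp2f and Cyp2j the difference was under 0.25 in size for 25, and the 95% interval lay between -1 and 1 for 27. The same shares over all tested genes were not counted. The median difference of the 12 Cyp2c members was -0.01, with 5 higher and 7 lower. It was 0.08 after quantile normalization and 0.10 after scaling to the array median. Minus the median of all tested genes, it stayed at 0.02 with array-median scaling and was 0.07 with quantile normalization. Cyp2c70, which makes muricholic acids, had log2 signals of 6.44, 7.10 and 7.61 in the L1-Tg pools and 7.07, 5.81 and 6.13 in the WT pools. The groups overlapped through WT replicate 1, and the difference was 0.71 (95% interval -0.28 to 1.70). Cyp2c37 had the largest negative difference of the subfamily at -0.32 (95% interval -0.78 to 0.14).

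The 10 Cyp2d members had a median difference of -0.09, with 9 lower, but it was 0.03 after quantile normalization and 0.02 after scaling to the array median, with 4 lower in each. Minus the median of all tested genes, it stayed at -0.06 with array-median scaling and was 0.01 with quantile normalization. Cyp2d9, a testosterone hydroxylase that is higher in male liver, differed by -0.23 (95% interval -0.76 to 0.31). Cyp2e1, the ethanol-inducible enzyme, had log2 signals of 9.87, 9.93 and 9.72 in the L1-Tg pools and 9.83, 10.12 and 9.90 in the WT pools. The groups overlapped and were close together, with a difference of -0.11 (95% interval -0.39 to 0.17). Cyp2f2, which oxidizes naphthalene, differed by -0.06 (95% interval -0.34 to 0.22), and Cyp2r1, a vitamin D 25-hydroxylase, by -0.13 (95% interval -0.43 to 0.16). The 5 Cyp2j members had a median of -0.04, with 1 higher, and this median was 0.07 after scaling to the array median. Minus the median of all tested genes, the Cyp2j median stayed at -0.01 there.

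For 14 members a second probe was measured on all 6 arrays. Probes of Cyp2c38, Cyp2j6 and Cyp2r1 had opposite signs. Those of Cyp2c38 (0.05 and -0.62), Cyp2j13 (-0.04 and -0.56) and Cyp3a59 (0.02 and 0.79) were over 0.5 apart, so the values of these 3 genes depend on the probe.

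Of 10 genes listed as female-biased, 7 were tested, and 6 of them were higher and 1 lower in the male L1-Tg livers, with a median difference of 0.67. In 4 of these 7 (Cyp2a4, Cyp2b9, Cyp2b13 and Cyp2g1) the groups did not overlap, where 7.27% of all genes were higher without overlap, and in Cyp3a16, Cyp3a41b and Cyp3a44 they did. The differences of Cyp3a16 (0.11) and Cyp3a41b (0.14) were -0.23 and -0.19 without WT replicate 1, which leaves 4 of 7 higher. All of these genes are members described above, so this count is not independent of them. Cyp2b9 and Cyp2b13 passed the filter only through the L1-Tg pools, where they are high.

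Most other genes of the pathway lay near their WT level. Of 17 genes for electron transfer and haem turnover 11 were higher and 6 lower, with a median of 0.07, and 0 had an unadjusted limma p under 0.05. Alas1, which sets the rate of haem synthesis, differed by -0.25 and Cyb5a, which also passes electrons to P450 enzymes, by -0.05. Of 22 tested partners and regulators of the receptors 11 were higher and 11 lower, with a median of -0.01. Of these, 1 had an unadjusted limma p under 0.05: Hsp90aa1, a chaperone of the aryl hydrocarbon receptor, with a difference of 0.42. The groups did not overlap in 5 of the 22 (22.7%, against 15.9% of all genes). Hsp90aa1 and Ncoa2 (0.12) were higher, and Rxra (-0.20) and Rxrb (-0.16), which encode RXR partners of CAR and PXR, and Nr1h4 (-0.15) were lower.

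Of 18 tested receptor targets outside the P450 families 13 were higher and 5 lower, with a median of 0.14. At an unadjusted limma p under 0.05 there were 3 higher and 1 lower, where 4.54% of all genes were higher and 4.31% lower. Nqo1, a quinone reductase, differed by 0.83, Gstm3 by 0.31, Aldh1a1 by 0.37 and Gadd45b by -0.70. In Nqo1 and Gstm3 the groups did not overlap, which is 11.1% of the list against 15.9% of all genes.

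Markers of zones and of other cells in the liver were read beside these results. Of 8 periportal markers 8 were lower, with a median of -0.28, where 56.9% of all tested genes were lower. In Pck1 and Ass1 the groups did not overlap, where 8.63% of all tested genes were lower without overlap. The 8 pericentral markers had a median of -0.05, with 3 higher and 5 lower. Summed over genes as multiples of the array's 75th percentile, the Kupffer cell markers (7 of 7 higher, median 0.30) ranged from 148 to 173 in L1-Tg pools and from 93.2 to 172 in WT pools. The neutrophil markers (3 of 5 higher, median 0.87) summed to 177 to 196 in L1-Tg pools and 209 to 258 in WT pools, so that sum and median differ in direction. Lymphocyte markers (5 of 7 tested higher, median 0.36) summed to 80.9 to 97.5 in L1-Tg pools and 90.2 to 225 in WT pools, also opposite to their median, and Ncr1 and Klrb1c were above background in 1 pool each. Pancreas markers (2 of 5 on the array tested) summed to 19.1 in L1-Tg replicate 2 and to 2.05 to 2.24 in the other 5 pools. Without that pool the differences of Cyp2b10, Cyp2a4 and Por were 2.75, 0.87 and -0.50. Stellate, endothelial, cholangiocyte and erythroid markers had medians of -0.05, 0.08, -0.23 and 0.28. The part of these markers in the P450 values was not tested.

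Across the 17 settings described for the processing, the 9 members without overlap kept their direction wherever they were tested. For most settings this was fixed in advance. Groups without overlap keep their direction when 1 pool is left out, and the block, the t-test and the filters leave the difference unchanged. Cyp2a4, Cyp2a22 and Cyp2g1 had an unadjusted p under 0.05 in 17 of 17 settings, Cyp2b10 in 14 and Cyp2b13 in 15 of 16. Cyp2b9 had it in 12 of 16, Cyp2a12 in 9 of 17, Por in 9 of 17 and Cyp1a1 in 8 of 17. With the methods' t-test the unadjusted p was above 0.05 for Cyp2b10 (0.105), Cyp2b13 (0.0527), Cyp2b9 (0.0821) and Cyp1a1 (0.0837).

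**Figure D5:**
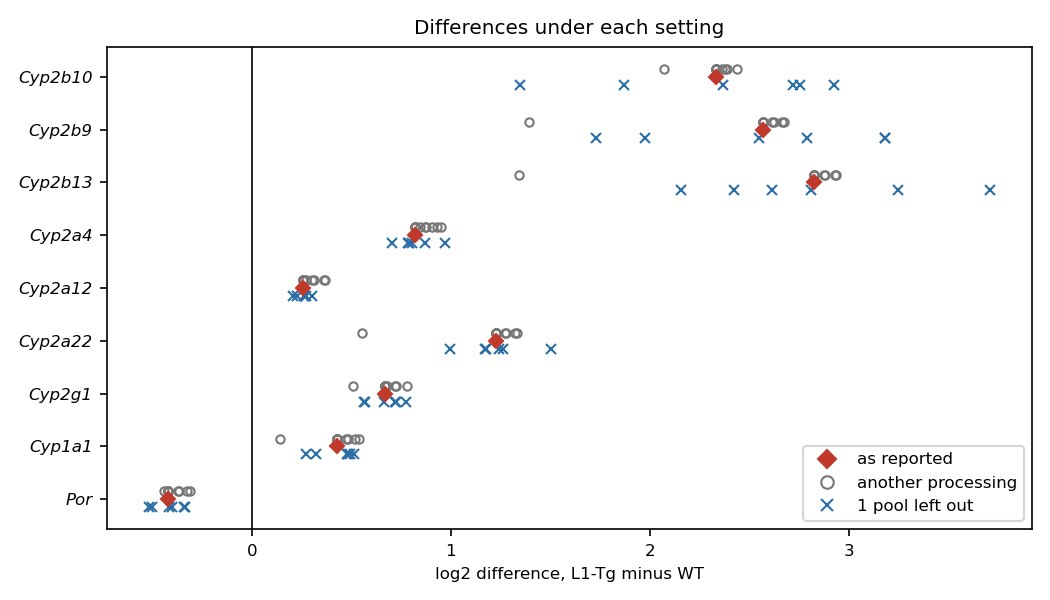
Log2 difference between L1-Tg and WT livers (horizontal axis) of the 9 members without overlap, as reported (red diamonds), under other processing (grey circles) and with 1 pool left out (blue crosses). Cyp2b10 ranged from 1.35 to 2.93 and Por from -0.52 to -0.31, and none of the 9 crossed 0. Leaving out 1 pool could not turn a direction, because the groups do not overlap.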

How the data were processed

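Liver RNA of 3 L1-Tg and 3 WT pools was read on 1-color Agilent arrays. Per the labels and the methods, the authors made the deposited intensity of each spot with Agilent Feature Extraction 10.10.1.1, which subtracts background and spatial trends within an array. Flags for spots well above background (0 or 1) and a matrix of intensities, equal to these signals times a factor of 2.46 to 2.98 per array whose basis was not given in the sources used here, were also deposited.

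Control spots and non-uniform spots were dropped, the spots of repeated probes (432) were averaged, and the array's 75th percentile was subtracted on the log2 scale. Of 28685 RefSeq-named probes 27235 matched a symbol. A gene was its probe with the highest mean. The 22338 genes measured in each pool of at least 1 genotype were tested with limma 3.58.1 (R 4.3.3, with data.table version 1.17.8 and jsonlite 2.0.0; two-sided, Benjamini-Hochberg over these genes, threshold 0.05) without covariates. The labels do not say how the pools are independent, so p-values measure the spread between pools, and 3 arrays a group limit the precision. An exact permutation test of 3 against 3 pools cannot go below 0.1.

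Members, lists and the naming rule were chosen with earlier results of these data known. Named were Por and the receptors, members without overlap or with an unadjusted p under 0.05, the brightest and most different members of each subfamily, and up to 3 genes of a list; others were named after their values were seen. Promoters were read from RefSeq (GRCm38.p6) with Biopython 1.88. The pipeline was tested on simulated data. Alternatives were quantile, array-median and no scaling, normexp correction (offset 50), the deposited matrix, no filter on dim probes or one on every array, probe means, a replicate block, the methods' t-test, an index above 1, and leaving out each array.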

Additional observations from a re-analysis of the deposited data

How the results depend on the processing

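In each of the 16 alternatives to the limma test, 0 members passed the adjusted threshold, and the smallest adjusted p ranged from 0.0817 to 0.759. The number of members with an unadjusted p under 0.05 was 9 as reported, 6 without scaling, 5 with the methods' t-test, whose smallest Benjamini-Hochberg adjusted p was 0.486, and 4 (without L1-Tg replicate 1) to 9 with 1 array left out, with 5 without L1-Tg replicate 3. The index counted 13 members as reported, 6 above a threshold of 1 (5 higher and 1 lower), and 13 to 24 with 1 array left out. Without WT replicate 3 it counted 24, of which 14 were lower, and without WT replicate 1 it counted 19, of which 10 were lower. The share of all genes passing the index or the unadjusted p under these alternatives was not counted. These counts therefore have no background beside them and are not read as a result about the members. The P450 median of -0.04 was 0.0716 after quantile normalization and 0.0726 with scaling to the array median, which moved the median of all tested genes from -0.03 to 0.08 and that of the members by the same amount. It ranged from -0.08 to 0.03 with 1 array left out. Without scaling and with the deposited matrix the P450 median also moved by the same amount as that of all tested genes. The cause of the moves with quantile normalization and with 1 array left out was not tested. With the replicate number as a block, 7 members had an unadjusted p under 0.05, the smallest adjusted p was 0.0817 and the P450 median stayed at -0.04. Deviations of same-numbered arrays correlated at -0.16, 0.11 and 0.02 over genes, so the numbers were not taken as pairing the pools. The P450 median turned from negative to positive with quantile normalization, array-median scaling, no scaling and the deposited matrix. The Cyp2c median also turned in these settings, to 0.08, 0.10, 0.05 and 0.04 in that order. The Cyp2j median turned with array-median scaling (0.07), no scaling (0.012) and the deposited matrix (0.005). Those of Cyp2d and Cyp3a turned as the report gives. Array-median scaling, no scaling and the deposited matrix shift the differences of all genes alike. Minus the median of all tested genes, the medians there stayed as reported. These were -0.005 for P450, 0.02 for Cyp2c, -0.06 for Cyp2d and -0.01 for Cyp2j. The 9 members without overlap kept their direction, which for most settings was fixed in advance. Dim probes limit the Cyp2b9, Cyp2b13, Cyp2a22 and Cyp1a1 values, whose differences were smaller after normexp correction.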
